A study of Mus musculus with 20 samples.

Results

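The genes described here are the collagen chains and fibronectin of a mouse hippocampal culture. They were chosen by symbol, as every gene in the deposited counts table named Col, a number, a and a number, together with Fn1. The table held 24419 genes, of which 44 were collagen genes, so that the set has 45 members with Fn1. Poly(A) RNA was sequenced from dissociated hippocampi of C57BL6 embryos at embryonic day 18, pooled from 4 embryos and cultured until day 10 in vitro in Neurobasal medium with 2% B27. Between days 3 and 6 all cultures also held 4 µM cytosine arabinoside, which removes proliferating cells. The control group, 5 libraries, was given a 2-min pulse of imaging medium alone. The glutamate group received 50 µM glutamate in the same pulse, the zinc group 50 µM glutamate with 10 µM ZnCl2, and the TPA group 50 µM glutamate with 10 µM tris(2-pyridylmethyl)amine (TPA), a zinc chelator that was also present for 1 min beforehand, with 5 libraries each. RNA was taken 90 min after the pulse. No group received zinc or TPA without glutamate. In the labels the 5 libraries per condition are biological replicates, but tissue of 4 embryos was pooled before plating and nothing says which libraries share a preparation, so p-values measure the spread between these libraries.

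Collagens are trimers of chains wound into a triple helix. Fibrillar collagens such as types I, III and V form cable-like fibrils, type IV forms the sheet of basement membranes, type VI forms beaded filaments, and fibril-associated types attach to fibrils. Transmembrane collagens stay anchored in the cell surface, and fibronectin is a secreted glycoprotein that binds collagens and integrins. In brain, types I and III are known mainly from the meninges and vessel walls and type IV from vascular basement membranes, while Col25a1 and Col19a1 are known to be made by neurons.

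RefSeq promoter sequences (GRCm38.p6) were found for 35 of the 45 members. The 250 bases before the start of Col28a1, Col23a1 and Col6a1 are shown because Col23a1 and Col6a1 varied together between libraries and Col28a1 varied against them (values below). The bases between the divergent starts of Col4a4 and Col4a3 are shown because these chains are encoded back to back. Capitals mark GGGCGG or its reverse complement CCGCCC, and all sequences run 5′ to 3′ on the strand given.
Col28a1, minus strand, chr6:8192618-8192867: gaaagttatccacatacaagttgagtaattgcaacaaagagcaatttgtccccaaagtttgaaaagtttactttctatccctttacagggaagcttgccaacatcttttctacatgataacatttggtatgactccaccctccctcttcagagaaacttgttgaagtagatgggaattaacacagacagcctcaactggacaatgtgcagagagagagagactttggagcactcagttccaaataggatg
Col23a1, plus strand, chr11:51289670-51289919: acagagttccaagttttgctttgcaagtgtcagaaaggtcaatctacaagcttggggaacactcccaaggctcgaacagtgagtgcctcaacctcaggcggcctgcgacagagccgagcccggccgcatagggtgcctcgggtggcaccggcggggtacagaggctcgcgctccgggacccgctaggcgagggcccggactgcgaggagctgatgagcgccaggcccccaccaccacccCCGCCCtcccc
Col6a1, minus strand, chr10:76726045-76726294: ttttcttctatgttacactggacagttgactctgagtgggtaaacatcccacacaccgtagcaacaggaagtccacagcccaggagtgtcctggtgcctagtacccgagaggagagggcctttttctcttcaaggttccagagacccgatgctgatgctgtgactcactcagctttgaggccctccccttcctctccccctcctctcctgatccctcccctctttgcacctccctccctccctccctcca
Col4a4 to Col4a3, minus strand, chr1:82586850-82586920: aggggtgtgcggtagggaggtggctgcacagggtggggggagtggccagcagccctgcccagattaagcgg
The Col28a1 window has 40.4% G and C, against 66.0% in the Col23a1 window, 56.0% in the Col6a1 window and a share of 69% between Col4a4 and Col4a3. In windows of 300 bases, which add 50 bases after the start, GGGCGG on either strand was found in 23 of 38 member windows and in 35.7% of 32851 windows of all genes. CCAAT was found in 13 member windows and in 37.4% of all windows, and TATAAA in 5 and in 13.6%. Some genes have more than 1 window, and the 3 motifs do not overlap in their letters.

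Levels between genes are compared here as the authors' deposited TPM, which is scaled for gene length. The members were low to moderate. Of the 45, 5 averaged at least 10 TPM over the 20 libraries, 24 at least 1 TPM and 21 less, whereas the median gene tested had 22.1 TPM. In total the members reached 130.6 to 153.5 TPM per library. The 8 highest genes held 72.6% of that sum. Library totals ran from 28692470 to 40934630 counts, and a count of 3 was worth 0.0738 to 0.105 CPM, the count scaled to the library total.

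**Figure D1:**
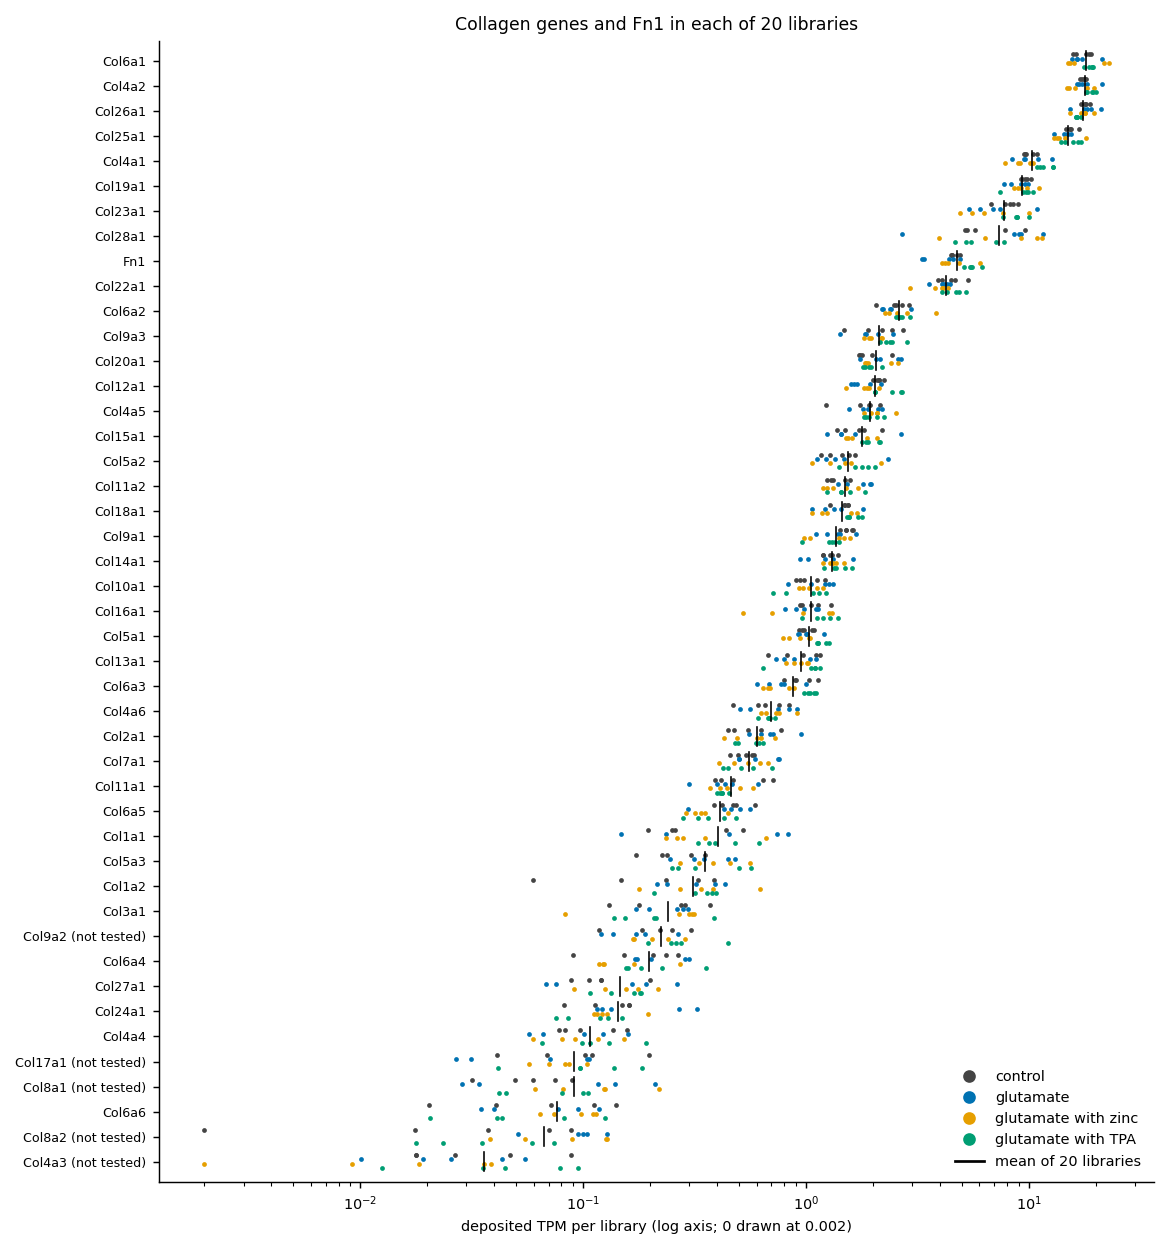
Deposited TPM of each of the 45 members (rows, ordered by mean) in each of the 20 libraries (points, coloured by group) on a log axis; the black bar is the mean of 20 libraries. Col6a1, Col4a2, Col26a1 and Col25a1 lie highest, between 12.9 and 22.9 TPM in every library, and Col28a1 has the widest scatter among the members above 1 TPM.

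The basement membrane chains of type IV made up 21.8% of the summed member TPM. Col4a2 averaged 17.8 ± 1.60 TPM (SD, n = 20) and Col4a1, with which it is assembled into the common form of type IV, 10.3 ± 1.41. Col4a5 had 1.95 TPM and Col4a6 0.699, while Col4a4 had 0.108 and Col4a3 0.0360, with 1 library at 0. Among the type VI chains, 15.6% of the sum, Col6a1 was highest of all members at 18.0 ± 2.24 TPM, whereas the chains it is known to assemble with were lower: Col6a2 2.60 ± 0.386 and Col6a3 0.879 ± 0.168.

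The transmembrane collagens held 16.8%. Col25a1, a neuronal membrane collagen known from amyloid plaques and from motor innervation, averaged 15.03 ± 1.37 TPM, and Col23a1 7.76 ± 1.64. Col13a1 had 0.951 TPM and Col17a1, the hemidesmosome collagen of skin, 0.0910. The fibril-associated types held 16.7%, led by Col19a1 at 9.36 ± 0.876, a collagen known from hippocampal interneurons, then Col22a1 at 4.27 ± 0.548, Col9a3 at 2.13, Col20a1 at 2.06 and Col12a1 at 2.04 ± 0.317. Col26a1, a short collagen with an EMI domain, had 17.6 ± 1.42 TPM and Col28a1, known from the sheaths of peripheral nerves, 7.33 ± 2.56; these belong to the remaining collagens, which held 18.8%. Fn1 had 4.75 ± 0.750 TPM, 3.34% of the sum, and the multiplexin collagens Col15a1 and Col18a1 had 1.78 ± 0.345 and 1.46.

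The 11 fibrillar genes together held 4.75%. Their highest was Col5a2, a chain of the type V collagen that regulates fibril diameter, at 1.55 ± 0.351 TPM, followed by Col11a2 at 1.50 ± 0.240 and Col5a1 at 1.03 ± 0.126. Col1a1, Col1a2 and Col3a1, the chains of the abundant type I and III fibrils, came to 0.402, 0.310 and 0.241 TPM. Their sum was 0.954 TPM on average (0.496 to 1.59), 0.671% of the member sum, and rested on 27 to 101 counts per library. Col4a2 alone averaged 18.7 times that sum.

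The order at the top was not fixed. Col6a1 was above Col4a2 in 7 of 20 libraries and Col4a2 above Col26a1 in 10, so these 3 did not separate beyond the spread between libraries. Col26a1 exceeded Col25a1 in 17 libraries and Col25a1 exceeded Col4a1 in all 20. Col4a1 and Col19a1 (12 of 20) did not separate, nor did Col23a1 and Col28a1 (11 of 20). Col19a1 was above Col23a1 in 18, Col28a1 above Fn1 in 16 and Fn1 above Col22a1 in 17.

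Markers of the cells that make most matrix in brain were low beside those of neurons. The 10 neuron markers summed to 6230 to 7210 TPM, led by Tubb3 and Snap25, and the 9 astrocyte markers to 293.5 to 369.0, led by the glutamate transporters Slc1a2 (162) and Slc1a3 (70.7), all 9 above 1 TPM. The 22 fibroblast and leptomeningeal markers summed to 12.9 to 17.6 TPM. Of these, 18 averaged under 1 TPM and 11 passed the expression filter; the highest were Dcn at 3.85 TPM and Islr at 2.83. The 11 mural markers summed to 12.4 to 16.6 (Rgs5 9.49, Notch3 1.80, the others under 1) and the 10 endothelial markers to 14.2 to 18.7 (Egfl7 12.8, Kdr 1.71, the others under 1). Of the 10 endothelial markers 4 passed the expression filter: Egfl7, Kdr, Pecam1 (0.817 TPM) and Esam (0.559 TPM). These were detected in every library. The lowest of the list, Cdh5, Tek and Tie1, averaged at most 0.0315 TPM, and Tie1 was at 0 in 19 of 20 libraries. No listed marker was at 0 in all libraries.

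Markers of other cells were measured as well. Oligodendrocyte lineage markers summed to 24.9 to 34.4 TPM (Cnp 9.71, Olig1 8.45), microglial markers to 3.01 to 5.83 (Csf1r 1.85, C1qa 1.34), Cajal-Retzius markers to 175.8 to 276.2 (Reln 213, Ndnf 11.8), choroid plexus markers to 4.01 to 22.3 (Ttr 5.42, Folr1 3.91) and markers of dividing cells to 3.68 to 5.74 (Top2a 2.01, Birc5 0.886). Averages under 1 TPM were found for 3 of 7 oligodendrocyte, 5 of 7 microglial and 3 of 5 Cajal-Retzius markers. The same held for 2 of 4 choroid plexus markers and 5 of 6 markers of dividing cells. Sox10 averaged 0.00726 TPM, Mog 0.0493, P2ry12 0.0681 and Tmem119 0.0375. Beside Reln, the Cajal-Retzius markers Trp73, Lhx1 and Lhx5 had 0.933, 0.411 and 0.368 TPM. Thus the libraries carried the labelled neurons, with astrocytes, and a small amount of RNA from stromal genes. In bulk RNA, fewer cells of a type and less RNA per cell cannot be told apart.

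**Figure D2:**
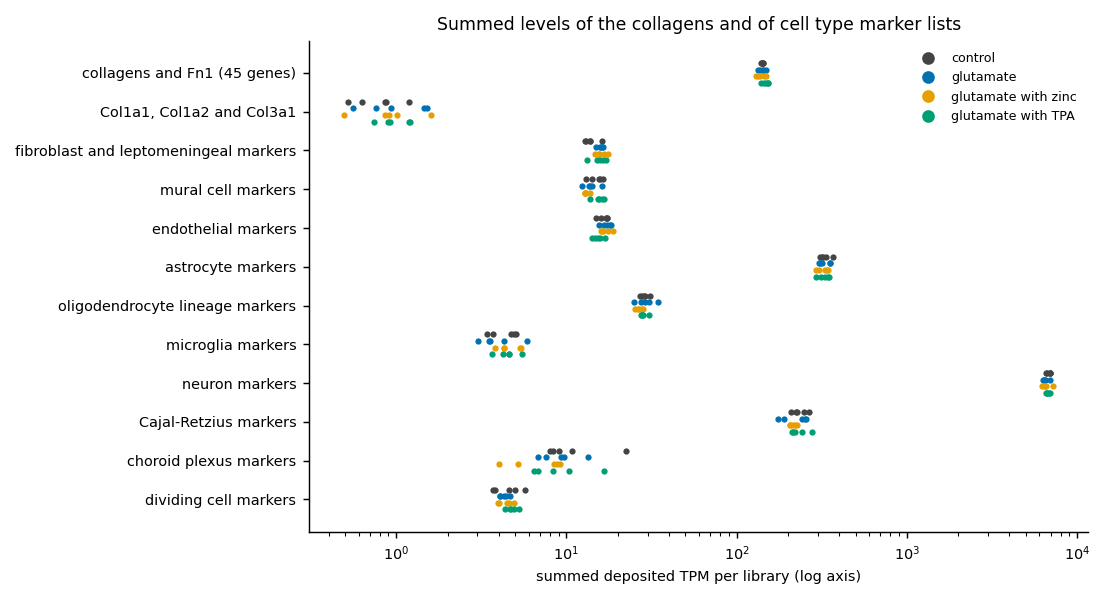
Summed deposited TPM per library (points, coloured by group, log axis) of all 45 members, of the type I and III chains and of each cell type marker list. The type I and III chains lie between 0.496 and 1.59 TPM, below every marker list, and the groups overlap in all lists.

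The question in each comparison was whether a pulse of glutamate, alone or with zinc or its chelator, moved the matrix genes within 90 min. Differences were tested on the counts with edgeR's quasi-likelihood test over all 14411 genes that passed the expression filter, adjusted by Benjamini and Hochberg's method (threshold 0.05), and are given as log2 fold changes with standard errors (SE). Col4a3, Col8a1, Col8a2, Col9a2 and Col17a1 did not pass the filter, leaving 40 members. Of the 40, 0 passed in each of the 6 comparisons. The shares of all genes that passed were 0.0208% for glutamate against control, 0.0416% for zinc against control, 0.0694% for TPA against control, 0% for zinc against glutamate and for TPA against glutamate, and 0.513% (74 genes) for TPA against zinc. Comparisons that share a group share its libraries and are not independent.

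At an unadjusted p under 0.05, 3, 4, 3, 2, 7 and 7 of the 40 members stood out in that order, or 7.5%, 10.0%, 7.5%, 5.0%, 17.5% and 17.5%, beside 4.98%, 11.1%, 3.09%, 5.98%, 7.15% and 16% of all genes. The median log2 fold change of the 40 was -0.03 for glutamate against control, 0.003 for zinc against control and -0.004 for zinc against glutamate. It was 0.10 for TPA against control, 0.07 for TPA against glutamate and 0.08 for TPA against zinc, while the medians of all genes were within 0.003 of 0 in all 6. These TPA medians were lower with an offset for GC content, given below. The members above 0 numbered 19, 20, 28, 20, 24 and 23 of 40, beside 48.9%, 50.7%, 49.3%, 50.3%, 51.3% and 49.7% of all genes. The groups overlapped for every member in glutamate against control (0.985% of all genes did not overlap), in zinc against control (1.31% of genes higher and 1.35% lower, together 2.66%) and in zinc against glutamate (0.368% and 0.333%, together 0.701%). In TPA against control 5 members did not overlap (1.33% of all genes), in TPA against glutamate 1 (1.03%), and in TPA against zinc 3 (3.13%), all 3 higher, with 1.14% of all genes lower; they are named below. Glutamate against control had 0.527% of genes higher and 0.458% lower. DESeq2 1.42.0 on the same counts passed 3 members, all in TPA against zinc and named below, and 0 in the other comparisons.

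The mean level of Fn1 was highest in the TPA group. Its CPM was 12.5, 12.6, 13.7, 13.4 and 12.8 in control libraries 1 to 5 and 13.5, 9.19, 11.9, 9.52 and 12.9 in glutamate libraries 1 to 5. With zinc it was 11.7, 11.3, 12.2, 17.04 and 13.7, and with TPA 14.6, 15.1, 15.4, 17.2 and 15.6. All 5 TPA libraries lay above all control and all glutamate libraries, whereas zinc library 4 lay among the TPA libraries. The log2 fold change of TPA against glutamate was 0.45 (SE 0.11), the smallest p of the members in that comparison, with an adjusted p of 0.516. TPA against control gave 0.26 (SE 0.11; adjusted p 1.000) and TPA against zinc 0.24 (SE 0.11; adjusted p 0.256). The share of all genes whose groups did not overlap and were higher with TPA was 0.5% against glutamate, where Fn1 was the 1 such member, and 0.742% against control, where there were 4.

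Col6a3, the long chain of the type VI heterotrimer, averaged less with glutamate or zinc than with TPA, though without passing the threshold. Its CPM was 4.04, 2.88, 3.26, 3.25 and 3.73 in control, and 3.54, 2.44, 2.70, 2.17 and 2.90 with glutamate. With zinc it was 2.48, 2.40, 2.32, 3.06 and 3.20, and with TPA 3.83, 3.86, 4.05, 3.68 and 3.51. The zinc and TPA libraries did not overlap, and glutamate library 1 was the one glutamate library inside the TPA range. TPA against zinc gave 0.50 (SE 0.12; adjusted p 0.0640), a 1.41-fold difference, and TPA against glutamate 0.46 (SE 0.12; adjusted p 0.516). Against control, zinc gave -0.35 (SE 0.12; adjusted p 0.325) and glutamate -0.32 (SE 0.12; adjusted p 0.950), with overlapping groups. The other 2 chains of the heterotrimer differed less: TPA against zinc gave 0.05 (SE 0.11; adjusted p 0.859) for Col6a1 and -0.05 (SE 0.13; adjusted p 0.880) for Col6a2.

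Col12a1, a fibril-associated collagen, was 8.64, 7.86, 8.34, 8.21 and 8.29 CPM in control and 7.41, 6.33, 6.42, 6.25 and 8.51 with glutamate. With zinc it was 7.08, 5.82, 7.38, 7.54 and 8.37 and with TPA 9.62, 10.3, 8.02, 7.97 and 10.4. Glutamate library 5 and zinc library 5 reached into the TPA range, and the other 8 glutamate and zinc libraries lay below it. TPA against glutamate gave 0.40 (SE 0.10; adjusted p 0.516), TPA against zinc 0.36 (SE 0.10; adjusted p 0.0810) and glutamate against control -0.24 (SE 0.10; adjusted p 0.950).

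Of the type IV chains, Col4a1 was 20.8, 21.4, 23.9, 21.3 and 22.9 CPM in control and 20.7, 18.3, 20.3, 24.3 and 28.1 with glutamate. With zinc it was 19.6, 17.03, 20.1, 23.3 and 22.3, and with TPA 24.4, 24.3, 25.7, 28.3 and 28.2. The TPA libraries lay above all control and all zinc libraries and overlapped with glutamate through glutamate library 5. TPA against zinc gave 0.35 (SE 0.10; adjusted p 0.0779), TPA against control 0.25 (SE 0.09; adjusted p 1.000) and TPA against glutamate 0.23 (SE 0.09; adjusted p 0.677). Col4a2 showed smaller differences, 0.18 (SE 0.07; adjusted p 0.245) against zinc and 0.11 (SE 0.07; adjusted p 1.000) against control, in the second case without overlap.

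Col5a1, the main chain of type V, was 2.66, 3.04, 2.98, 2.62 and 2.76 CPM in control, 2.76, 2.54, 2.76, 2.60 and 3.39 with glutamate, 2.35, 2.60, 2.21, 2.92 and 2.92 with zinc and 3.21, 3.13, 3.14, 3.54 and 3.43 with TPA. All TPA libraries were above all control and zinc libraries. TPA against zinc gave 0.34 (SE 0.10; adjusted p 0.0954), TPA against control 0.23 (SE 0.10; adjusted p 1.000). In TPA against zinc 3 members, Col6a3, Col4a1 and Col5a1, were higher without overlap, against 1.98% of all genes. In TPA against control Fn1, Col4a1, Col4a2 and Col5a1 were higher in this sense, and Col26a1 was lower, at 14.9 ± 0.185 CPM (SD, n = 5) against 16.2 ± 0.479, -0.12 on the log2 scale with an SE of 0.07 (adjusted p 1.000), beside 0.59% of all genes.

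**Figure D3:**
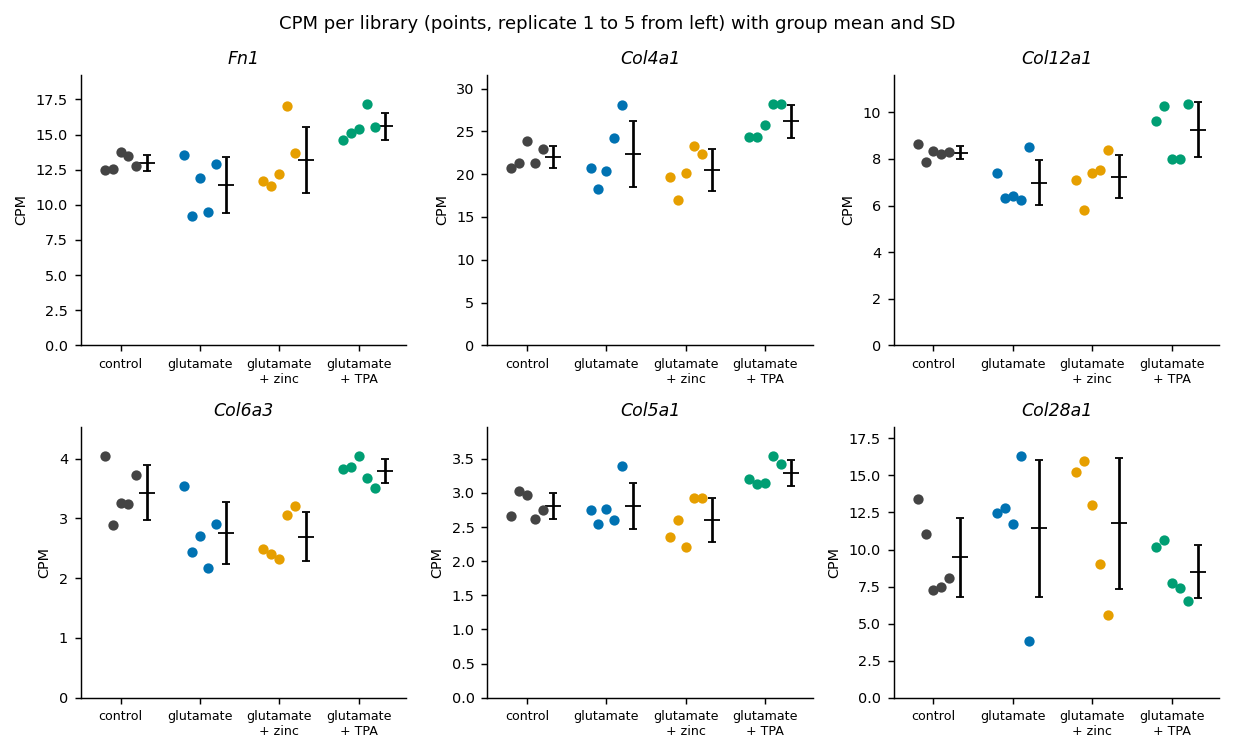
CPM per library (points, replicates 1 to 5 from left to right) for 6 members, with group means and SD (n = 5), on axes that start at 0. For Fn1 the TPA libraries lie at 14.6 to 17.2 CPM, above all control and glutamate libraries, and for Col28a1 glutamate libraries range from 3.81 to 16.3.

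Zinc against glutamate, the addition of 10 µM ZnCl2 to the same pulse, gave the smallest p for Col11a2 at -0.28 (SE 0.12; adjusted p 0.771), Col6a5 at -0.37 (SE 0.18; adjusted p 0.832) and Fn1 at 0.21 (SE 0.11; adjusted p 0.844). Col11a2, a chain of cartilage type XI collagen, was also among the 3 smallest for glutamate against control, at 0.30 (SE 0.12; adjusted p 0.950). For zinc against control the 3 smallest were Col6a3, Col6a5 at -0.44 (SE 0.18; adjusted p 0.374) and Col5a3 at 0.63 (SE 0.26; adjusted p 0.391). Col5a3 was at 0.812 ± 0.228 CPM with zinc and 0.524 ± 0.140 in control, on 13 to 41 counts per library, so that this difference rests on few counts.

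Described by structural class, of the 11 fibrillar genes 9 were above 0 for glutamate against control (median 0.28), 9 for zinc against control (0.05), 7 for TPA against control (0.23), 5 for TPA against glutamate (-0.06) and 5 for TPA against zinc (-0.02). All 5 tested type IV genes were above 0 for TPA against control (median 0.11), and 3 of 5 against zinc. The 3 tested transmembrane genes and both multiplexins were below 0 for glutamate and zinc against control and above 0 for TPA against control, glutamate and zinc. The 4 tested genes of the remaining collagens, Col7a1, Col10a1, Col26a1 and Col28a1, were above 0 for glutamate against control and below 0 in all 3 TPA comparisons. None of these genes passed the threshold. Some of the signs rest on nearly equal levels. Col15a1 averaged 1.724 TPM with zinc and 1.720 in control. With TPA and in control, Col25a1 averaged 15.58 and 15.53 TPM, and Col7a1 0.532 and 0.530. Col5a1 averaged 1.014 TPM with glutamate and 1.003 in control. Several fibrillar signs rest on few counts per library: 8 to 52 for Col1a1, 4 to 40 for Col1a2, 5 to 31 for Col24a1 and 6 to 27 for Col27a1.

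**Figure D4:**
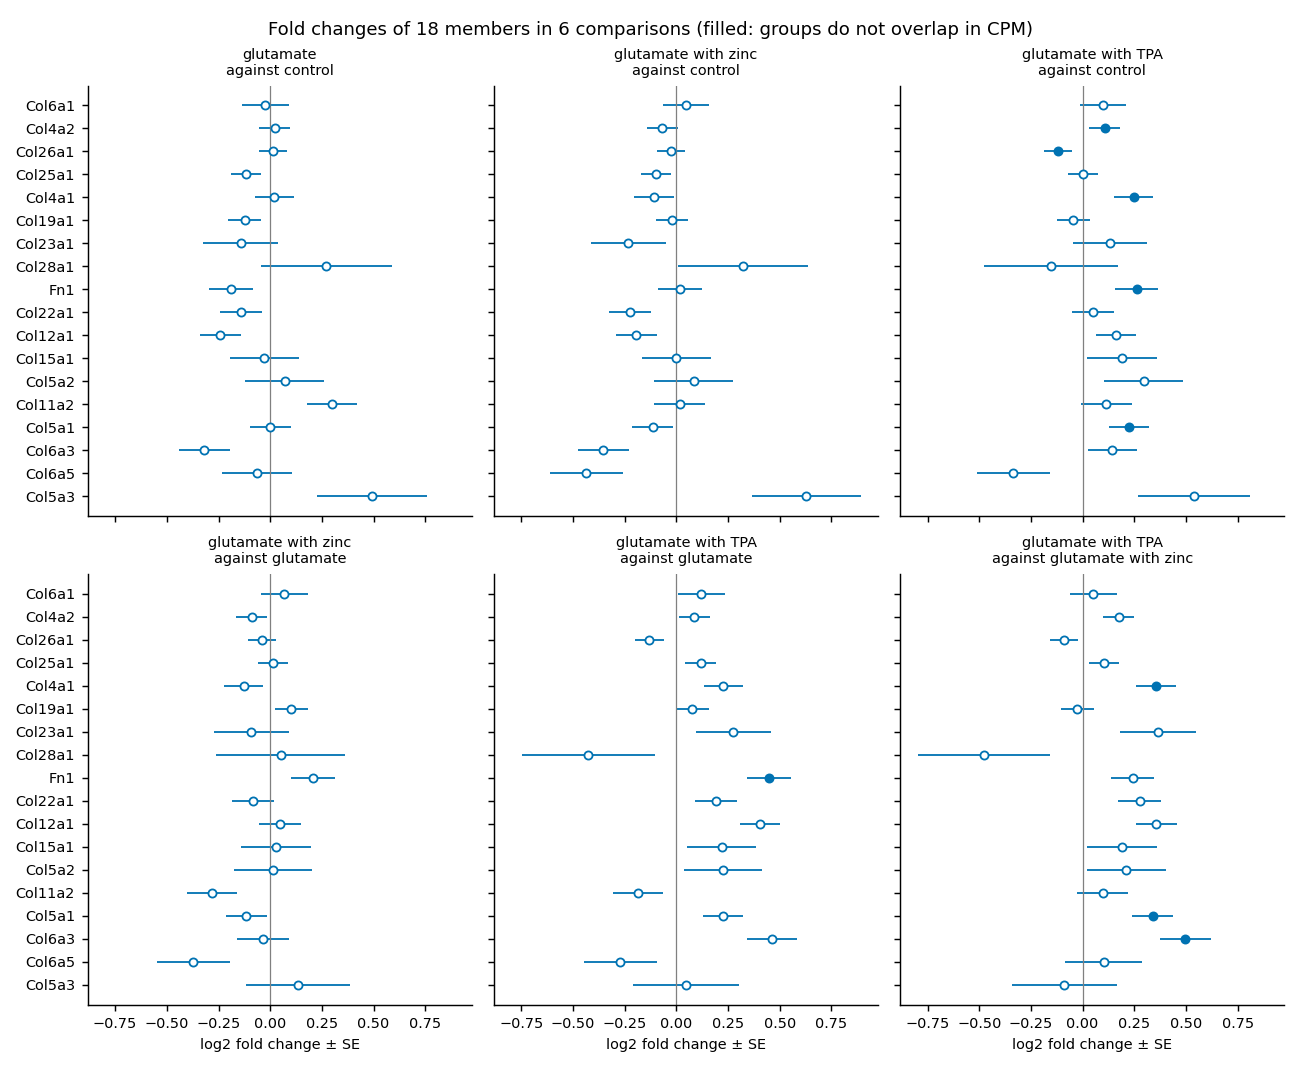
Log2 fold change with its standard error for 18 members in the 6 comparisons; filled points mark members whose groups did not overlap in CPM. Most intervals cross or approach 0, and the filled points lie in the 3 panels with TPA.

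Which members passed for TPA against zinc differed between tools and when single zinc libraries were left out. Without zinc library 4, 6 of 40 members passed (Fn1, Col6a3, Col5a1, Col4a1, Col4a2 and Col12a1; 899 genes in all), and without zinc library 5, 2 passed (Col6a3 and Col12a1; 230 genes). Without glutamate libraries 4 and 5 and zinc library 5, the 3 farthest from their group means over all genes (a choice made after seeing the data), 7 passed for TPA against zinc (1149 genes in all) and 5 for TPA against glutamate (551 genes in all), Fn1 and Col12a1 among them (adjusted p 0.0482 and 0.0168). DESeq2 passed Col6a3, Col4a1 and Col12a1 (adjusted p 0.0111, 0.0158 and 0.0255; 481 genes in all). The fold changes themselves moved little: over 20 alternatives Col6a3 stayed within 0.45 to 0.56, Col4a1 within 0.30 to 0.41 and Col12a1 within 0.29 to 0.41. The authors' deposited table for this comparison, with shrunken values, gave log2 fold changes of 0.22, 0.21 and 0.20 for Col6a3, Col4a1 and Col12a1 with adjusted p of 0.0109, 0.0163 and 0.0255. Of the 45 members 26 have an adjusted p in the authors' deposited table for this comparison, where 456 genes passed 0.05. For the other 5 comparisons, the authors' deposited table had 0 members past 0.05, but for zinc against control it gives an adjusted p for 11 of the 45 members, and none for Col6a3 and Col6a5.

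Other measures differed between the same groups. In TPA against zinc, the mural marker Acta2, smooth muscle actin, rose by 1.34 on the log2 scale (SE 0.29; adjusted p 0.0363), from 0.323 ± 0.1496 to 0.825 ± 0.248 CPM, the one gene of the 10 marker lists to pass in any comparison. The summed mural markers were 12.8 to 13.8 TPM with zinc and 13.7 to 16.6 with TPA, and the fibroblast and leptomeningeal ones 14.7 to 17.6 and 13.2 to 17.2. The summed endothelial markers were 15.9 to 18.7 TPM with zinc and 14.2 to 16.9 with TPA, and the astrocyte ones 293.5 to 345.0 and 293.6 to 347.0. Over 13880 genes the log2 fold change of TPA against zinc correlated with the transcript's GC content (Spearman's rho 0.32, a description across genes), and Col6a3 has 54.5% GC, Col4a1 57.7% and Col12a1 48.3%. With a GC offset within each library, added after seeing the data, Col6a3 was at 0.47, Col4a1 at 0.30 and Col12a1 at 0.37. The median of the 40 tested members was then 0.03 for TPA against zinc, 0.08 for TPA against control and 0.06 for TPA against glutamate. The part of these markers in these differences was not tested.

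Genes of the pathway around collagen and fibronectin were followed in 5 lists. Of 29 tested genes for collagen synthesis and crosslinking, 16 receptor genes, 11 metalloproteinases and inhibitors, 14 other basement membrane genes and 16 TGF-beta signalling genes, 0 passed in any comparison. Medians of the lists lay between -0.06 and 0.08. In the synthesis list the smallest p was that of P3h2, a prolyl 3-hydroxylase, at 0.53 (SE 0.16; adjusted p 0.273) for zinc against control. Among receptors it was Ddr1, a collagen-binding receptor kinase, at 0.20 (SE 0.06; adjusted p 0.105) for TPA against zinc. Timp2, an inhibitor of metalloproteinases with 568 TPM, was at 0.12 (SE 0.04; adjusted p 0.1501) and the ligand Tgfb2 at -0.15 (SE 0.05; adjusted p 0.110) in the same comparison. Nid1, which links laminin to type IV collagen, was higher for TPA against glutamate without overlap, at 0.47 (SE 0.13; adjusted p 0.517).

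The highest genes of the synthesis list were abundant although most collagens were not. Ppib had 337 TPM, P4hb 217, Mia3, which loads procollagen into transport carriers, 101 and Colgalt1 62.4. Serpinh1, the collagen chaperone HSP47, had 4.98. Of the 32 listed genes 7 averaged under 1 TPM. Among these were Lox at 0.0546, Loxl1 at 0.538, Loxl2 at 0.281, Loxl3 at 0.462 and Loxl4 at 0.0345. P4hb and Ppib also serve other proteins. Agrn, a heparan sulfate proteoglycan of basement membranes and synapses, had 86.3 TPM and Itgb1, the shared beta subunit of collagen and fibronectin integrins, 76.4. Of the alpha subunits listed, Itgav was highest at 6.47 TPM. Itga4, Itga8 and Itga9 had 2.27, 4.20 and 4.40, and Itga1, Itga2, Itga5, Itga10 and Itga11 0.181, 0.0749, 0.519, 0.404 and 0.144.

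Among the 24 members at 1 TPM or more, Col28a1 varied most within groups. Its CPM was 13.4, 11.0, 7.30, 7.50 and 8.06 in control, and 12.5, 12.8, 11.7, 16.3 and 3.81 with glutamate. With zinc it was 15.2, 15.98, 13.0, 9.02 and 5.57, and with TPA 10.2, 10.6, 7.76, 7.40 and 6.55. Glutamate library 5 and zinc library 5 were the lowest of all 20. Its spread around the group means was above that of all 400 tested genes of most similar abundance. Col23a1 was above 98.8% of its own 400 such genes, and Col5a2 above 96.0%.

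Col23a1 ran opposite to Col28a1, at 12.6, 14.7, 16.1, 16.9 and 15.5 CPM in control and 13.8, 10.1, 12.7, 11.4 and 20.7 with glutamate, 11.8, 9.14, 10.5, 14.5 and 18.9 with zinc and 14.7, 16.3, 16.8, 16.6 and 18.9 with TPA. After the group means were removed from log2 CPM, Pearson's r over the 20 libraries was -0.91 (Spearman's rho -0.87; permutation p 6e-05 and 5e-05; adjusted p of r 0.00414). The 24 members at 1 TPM or more were compared in all 276 pairs, with permutations within groups and adjustment over the 276. Of these pairs 16 passed for r, 13 positive and 3 negative, and 24 for rho, and the median r was 0.11. The share of pairs of other genes that relate as strongly was not measured. Col28a1 was above its group mean in every library numbered 1 or 2 and below it in every library numbered 5. Col23a1 was below its group mean in every library numbered 2 and above it in every library numbered 5. The permutations treat libraries of different groups as unlinked, so the p-values of all pairs may be too small if same-numbered libraries share a preparation.

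The pairs that passed shared a few genes. Col23a1 and Col5a2 had r 0.93 (rho 0.90; permutation p 2e-05 and 1e-05; adjusted p of r 0.00276), and Col23a1 and Col6a1 0.89 (rho 0.87; permutation p 0.00018 and 0.00027; adjusted 0.00710). Col28a1 had -0.90 with Col5a2, -0.85 with Col6a1 and 0.84 with Col26a1 (permutation p 9e-05, 0.00051 and 3e-05; rho -0.84, -0.77 and 0.84 with permutation p 0.00016, 0.0008 and 5e-05). Col4a1 and Col4a2 had 0.89 (rho 0.87; permutation p 1e-05, the smallest that 100000 permutations can give, and 5e-05; adjusted 0.00276), and Col6a1 and Col6a2 0.80 (rho 0.81; permutation p 0.00286 and 0.00208; adjusted 0.0493).

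Several of these relations weakened, and that of Col6a1 with Col6a2 strengthened, when libraries far from the rest were left out. Farthest from their group means over all genes were glutamate 4, glutamate 5 and zinc 5. Without the 2 libraries farthest from the median of the first gene, r was -0.80 for Col23a1 with Col28a1, 0.83 with Col5a2, 0.83 for Col4a2 with Col4a1 and 0.85 for Col6a1 with Col6a2. Without the 3 farthest libraries, a choice made after seeing the data, r over 17 libraries was -0.76, 0.81, 0.80 and 0.90 in that order, and for Col26a1 with Col28a1 it fell from 0.84 to 0.56. Col23a1 has 55.1% GC in its transcript, Col6a1 56.7%, Col5a2 49.6%, Col28a1 49.6% and Col26a1 60.5%.

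**Figure D5:**
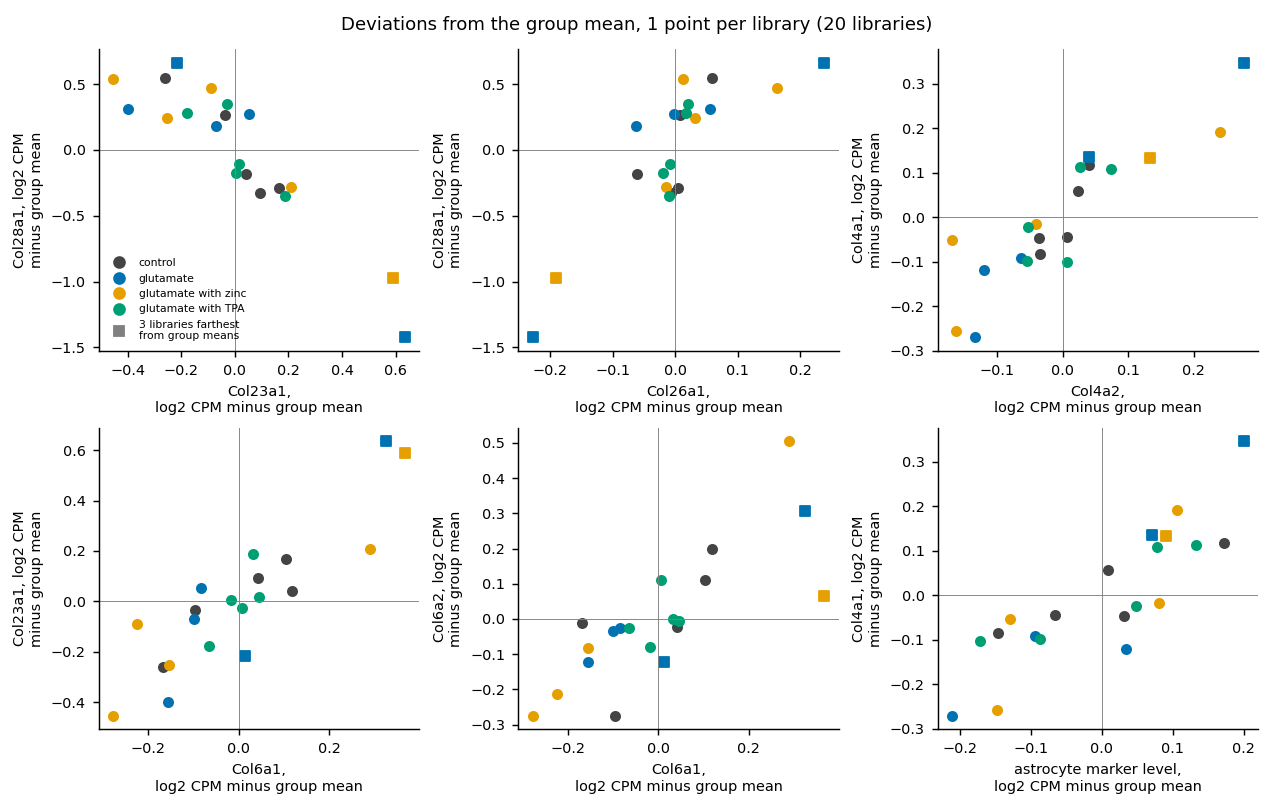
Log2 CPM minus the group mean, 1 point per library (colours are groups, squares the 3 libraries farthest from their group means), for 5 pairs of members and for Col4a1 against the mean of 9 astrocyte markers. Col28a1 falls as Col23a1 rises (r -0.91), with glutamate library 5 and zinc library 5 at the far end, and Col4a1 rises with Col4a2 (r 0.89).

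Each tested member was also compared with all 14411 genes tested, by r of deviations over the same 20 libraries. The genes with the highest r were Adamts1, Rgs4 and Nfil3 for Col28a1 (0.98 each) and Camkk2, Trp53i11 and Sobp for Col23a1 (0.97, 0.97 and 0.96). They were Doc2b, Lingo1 and Ddn for Col6a1 (0.96, 0.95 and 0.95) and Cdk5r2, Gfap and Oprl1 for Col4a1 (0.95, 0.93 and 0.92). For Fn1 they were Ptprs, Vwa5b1 and Mcm3ap (0.87, 0.87 and 0.85). Gfap is 1 of the 9 genes in the astrocyte level used below. These genes were picked as the highest of all genes tested, and how high such values run for other genes was not measured. Members with few counts also had high maxima, such as 0.82 for Col3a1 and 0.83 for Col4a4.

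The 10 members of highest TPM were set against 4 marker levels, 40 relations in all, with group means removed. With fibroblast and leptomeningeal markers r ran from -0.49 to 0.24, with mural markers from -0.33 to 0.34 and with endothelial markers from -0.51 to 0.41, and 0 of these 30 passed after adjustment over 40. With the astrocyte level 5 of 10 passed for r. How many of all genes tested relate as strongly to this level was not measured, so these relations are not shown to be particular to the members. The astrocyte level was below its group mean in every library numbered 1 or 2. In every library numbered 3, 4 or 5 it was above. The permutations treat libraries of different groups as unlinked, so the p-values that follow may be too small if same-numbered libraries share a preparation. Col4a1 had r 0.86 (rho 0.87; permutation p 2e-05 and 1e-05; adjusted p of r 0.0008), Col4a2 0.69 (rho 0.74; permutation p 0.00265 and 0.00139; adjusted 0.0346) and Col6a1 0.67 (rho 0.66; permutation p 0.00346 and 0.00461; adjusted 0.0346). Col23a1 had 0.65 (rho 0.65; permutation p 0.00525 and 0.00686; adjusted 0.0420) and Col28a1 -0.71 (rho -0.75; permutation p 0.00143 and 0.00091; adjusted 0.0286).

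Without the 2 libraries farthest from the median astrocyte level, glutamate 2 and zinc 2, r was 0.79 for Col4a1, 0.61 for Col4a2, 0.60 for Col6a1, 0.52 for Col23a1 and -0.70 for Col28a1. The definition of the level mattered. With the log2 of the summed TPM of the same 9 genes, which Slc1a2 dominates, Col4a1 had r 0.66 and 1 relation, that of Col28a1 (-0.70), passed. Fn1, at 0.54 with the mean level (rho 0.62; permutation p 0.0349 and 0.0114), did not pass (adjusted p of r 0.175).

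Several members are neighbours in the genome (mm10). Col4a1 (chr8:11198423-11312826, minus strand) and Col4a2 (chr8:11312829-11449287, plus strand) start back to back with 2 bases between them, and the ratio of their TPM held between 0.51 and 0.66 in the 20 libraries. Col4a6 and Col4a5 start back to back 1342 bases apart on chromosome X, with r 0.54 and a ratio of 0.29 to 0.50. Col4a4 and Col4a3, 71 bases apart, were both at or near the limit of detection, at most 16 and 9 counts. Col6a2 and Col6a1 lie on 1 strand of chromosome 10, 85387 bases apart, with a ratio of 0.12 to 0.18. Neighbours that end towards each other did not share their deviations: r was 0.14 for Col9a1 and Col19a1 and -0.24 for Col3a1 and Col5a2. The sources used here do not give the use of strand in counting, so reads of such neighbours may be shared where transcripts overlap.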

How the data were processed

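Members and lists were chosen with earlier results of these data known. The authors deposited whole-number counts per gene and, from the same counts divided by gene length, TPM; recomputed TPM matched to within 5e-07. Deposited tables of the authors' comparisons hold a mean normalized signal, a shrunken log2 fold change with its error, a Wald score and a p-value. Per the submitters' processing notes, the tools include DESeq2 1.14.1 under R 3.3.0, HISAT2 2.1.0, Trimmomatic 0.36, featureCounts and SAMtools 1.3.1, with the build mm10; settings are not given in the sources used here. The length column of the deposited annotation, in bases, was used to check TPM.

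Here, edgeR 4.0.16 (R 4.3.3; TMM, default filter, robust quasi-likelihood fit of all 20 libraries with 4 group means and 16 residual degrees of freedom) was tested on simulated data and then run on the 14411 genes that passed, holding 99.98% of counts. CPM used TMM scaling, and log2 CPM a prior count of 2. Permutation tests drew 100000 permutations within groups. Members named are the 10 highest by TPM, the 3 smallest p in each comparison and the highest of each class; pathway genes are those of smallest p per list, and markers the 2 highest per list. Genes named for other reasons (level, overlap, neighbours, nearest deviations) were chosen after their values were seen. Alternatives were DESeq2 1.42.0 and its size factors, limma 3.58.1 (voom), 2 other filters, fits of 2 groups, a replicate block, and leaving out each library; a fit without 3 libraries, one without robust estimation and a GC offset (loess span 0.5) were added after seeing the data.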

Additional observations from a re-analysis of the deposited data

Results flagged for a closer look

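For 18 members, each of the 4 groups of 5 libraries was checked for a single library apart from the rest, 72 groups in all; chance alone would mark about 3.6, and 3 were marked. Col25a1 was 45.1 CPM in zinc library 5, with the next highest at 35.6 and the lowest at 32.5. Col5a2 was 5.19 CPM in glutamate library 5, the next being 3.22 and the lowest 2.47. Col5a1 was 3.39 CPM in the same library, with the next at 2.76 and the lowest at 2.54. Both libraries are among the 3 farthest from their group means over all genes.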

How the results depend on the processing

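In 5 comparisons the count of members past the threshold stayed at 0 under every alternative listed in advance. In TPA against zinc it was 3 with DESeq2, 4 with the replicate block (Col6a3, Col22a1, Col4a1 and Col12a1; 422 genes in all) and 0 to 6 over libraries left out, and 7 without the 3 farthest libraries (1149 genes), which also gave 5 for TPA against glutamate (Fn1, Col18a1, Col15a1, Col4a1 and Col12a1; 551 genes). Those 3 belong to the glutamate and zinc groups, so that fit has fewer samples and a smaller spread there. The block changed no other member count. Under the block Col22a1 was at 0.28 (adjusted p 0.0491). The labels do not say that a replicate number marks a shared preparation. Deviations of same-numbered libraries had a mean r of 0.08, against -0.02 for other pairs, with 11 of 30 over 0.1; they were positive in 6 of 6 pairs for number 2 (0.04 to 0.23) and number 5 (0.04 to 0.50) and in 3 of 6 for numbers 3 and 4, and 9 of 20 libraries correlated best with their own number, a hint of partial pairing from the data and not the design. Summed over comparisons, pathway genes past the threshold numbered 3 with DESeq2 (0.51% of tests, against 0.469% for all genes), 1 with the replicate block (0.19% against 0.547%), 17 without the 3 libraries (3.26% against 2.34%) and 0 to 5 over libraries left out (at most 0.969%, without zinc library 4, against 1.17%). With the summed TPM as the astrocyte level 1 relation passed in place of 5. No fold change of the 3 members of smallest p in each comparison reversed. Signs of other members were not followed in this way. Col5a1, at 1.014 TPM with glutamate and 1.003 in control, was at -0.003 for glutamate against control with the replicate block. In all, 16 values of single genes gained the threshold and 4 relations lost it; the cause was not tested. Depth limits the type I, III and other members under 0.5 TPM (16 of 45), where low counts leave wide errors.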
